A study of Homo sapiens with 4 samples.

Results

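The DNA loops described here were those anchored at 10 heat shock and chaperone genes, HSPA1A, HSPA1B, HSPA8, HSPA5, HSP90AA1, HSP90AB1, HSPH1, DNAJB1, HSPD1 and HSPE1. A loop was taken when an anchor overlapped the GENCODE record of a member gene (GRCh38) or the 20 kb on either side of it. This rule found 65 of the 66417 mock loops and 10 of the 18778 loops listed for cells treated with pyridostatin (PDS), 71 distinct loops in all, of which 23 lay in the windows of more than 1 member. The loops came from RNAPII HiChIP-seq, a method in which chromatin is cross-linked, cut with MboI and ligated in the nucleus, and the ligated fragments bound by the POLR2A subunit of RNA polymerase II are then enriched with an antibody and sequenced from both ends. HepG2 cells, a line established from a human hepatocellular carcinoma, were either mock-treated, which per the study's methods was with sterilized water, or exposed to 20 µM PDS for 24 h. PDS is a small molecule that binds G quadruplexes (G4s), the 4-stranded structures of G-rich DNA. Each condition had 2 replicates that the authors combined into 1 list of loops, so no test between the conditions was possible, and every interval below covers counting error only.

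Chaperones of the HSP70 family hold unfolded segments of proteins in cycles of ATP binding and hydrolysis. J-domain proteins start the cycle and nucleotide exchange factors end it, while HSP90 acts later, on proteins that are close to their native fold. Under heat and other proteotoxic stress, trimers of the factor HSF1 bind heat shock elements, inverted repeats of GAA, and drive many of these genes. The HSP70 of the endoplasmic reticulum, HSPA5 (BiP), is instead driven by the unfolded protein response through the endoplasmic reticulum stress element (ERSE).

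The promoters carried these elements to different degrees. The sequences are shown because they are the part of each gene that heat shock factors read, and because several of the start sites were loop anchors while others were not. They come from the RefSeq promoter table (GRCh38.p14), run 5′ to 3′ on the strand of the gene and have each inverted pair of heat shock units in capitals, namely GAANNTTC or TTCNNGAA, either of which reads the same on both strands. A pair was present in 13.5% of 35116 promoter windows of 300 bases, and a run of 3 units, which contains overlapping pairs, in 0.490%. The 120 bases before the start are given for the stress-inducible pair HSPA1A (chr6:31815423-31815542, + strand) and HSPA1B (chr6:31827618-31827737, + strand) and for HSP90AA1 (chr14:102087045-102087164, − strand).
HSPA1A: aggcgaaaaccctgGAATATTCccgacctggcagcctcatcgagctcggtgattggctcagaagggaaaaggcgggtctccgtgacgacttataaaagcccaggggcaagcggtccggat
HSPA1B: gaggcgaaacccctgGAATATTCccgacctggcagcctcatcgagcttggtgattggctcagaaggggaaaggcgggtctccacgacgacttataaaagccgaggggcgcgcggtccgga
HSP90AA1: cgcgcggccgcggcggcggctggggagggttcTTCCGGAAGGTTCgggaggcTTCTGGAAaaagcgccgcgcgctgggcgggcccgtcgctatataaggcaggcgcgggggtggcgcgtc

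HSPA1A and HSPA1B held the same pair, 106 and 105 bases before their starts, and their 249 aligned upstream bases were 94.4% identical. HSP90AA1 held a run of 3 units 88 bases before its start and a further pair. Further matches, printed with short flanks only, were found 55 bases before the start of HSPA8 (chr11:123062175-123062195, − strand), 112 bases before a downstream start of HSP90AB1 (chr6:44247827-44247847, + strand), 245 bases before the start of HSPD1 (chr2:197500064-197500089, − strand) and 77 bases before the start of DNAJB1 (chr19:14518463-14518478, − strand). The downstream start of HSP90AB1 lies 842 bases inside the gene from the canonical one. Not printed are a second run of HSPA8, 230 bases before its start, and of HSP90AB1, 165 bases before the downstream start. DNAJB1 held further pairs, 47 bases before the same start and at another start.
HSPA8: ccccTTCTGGAAGGTTCtaag
HSP90AB1: attgTTCTGGAAGCTTCtgga
HSPD1: cattTTCTGGAAAGTTCTGGAAccga
DNAJB1: ggcgGAAGGTTCtgga

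These letters were absent from the HSPA5, HSPH1 and HSPE1 windows. Some windows of other members lacked them too, among them that of the canonical HSP90AB1 start. The HSPH1 window was that of a start 484 bp from the canonical one, and the HSPD1 run printed above lay 294 bases before the HSPE1 start, outside the window of that gene. HSPA5 instead held 5 CCAAT boxes, the DNA letters CCAAT or ATTGG, and 1 ERSE, a motif present in 0.0769% of all promoter windows, with CCAAT in 34.6%. A match is a description of the letters and not of a bound site.

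In mock-treated cells all 10 genes had at least 1 loop in their window, from 1 at HSPA8 and 2 at DNAJB1 to 15 at HSPA1A and 17 at HSPA1B. HSPA8 and DNAJB1 were the only members below the median of all genes. The members had a median of 9.5 mock loops each, against a median of 4 (quartiles 1 and 7) for 20033 protein-coding genes, of which 80.8% had any. A loop is supported by paired-end tags (PETs), the read pairs that join its anchors, and both lists started at 3 PETs. The 65 loops carried 3 to 10 PETs with a mean of 3.97, against 3.83 for all mock loops. They spanned a median of 21853 bp between anchor centres, and all loops spanned 17418 bp. An anchor lay within 1 kb of a protein-coding start in 42 of the 65 loops (64.6%, 95% Wilson interval 52.5 to 75.1%), compared with 46.0% of all mock loops, and both anchors did in 30.8%, compared with 12.7%. The 20 loops with a start at both anchors were unevenly spread. The windows of HSPA1A and HSPA1B held 8, that of HSP90AB1 7 and that of HSP90AA1 3. HSPH1 and HSPA8 had 1 each, where both starts belonged to the same gene. HSPD1 and HSPE1, HSPA5 and DNAJB1 had 0. Many of the 20 joined starts of neighbours and none of a member, such as VARS1 to LSM2, CAPN11 to SLC29A1 and different starts of WDR20 to each other.

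After PDS treatment the number of loops was far lower, at 10 against 65, and 4 of the 10 genes, HSPA8, HSPA5, HSP90AA1 and DNAJB1, had no loop left in the PDS list. The same was true of 35.0% of the 16187 protein-coding genes that had a mock loop, so the count of genes stood near the background. The ratio of PDS to mock loops was 0.154 (95% interval 0.0800 to 0.296) at the members and 0.283 over all loops, a value inside the members' interval. This depended on the setting. With a 50 kb flank the members' ratio was 0.167 (0.0988 to 0.281), and 0.283 fell just outside. In the 20 kb windows the members' summed PETs went from 258 to 31, a ratio of 0.120 (0.0830 to 0.174), against 0.263 for all loops. With each list scaled to its own total of PETs, 254647 and 67001, the members' ratio was 0.457 (0.315 to 0.661). PETs enter or leave a list together with their loop, so the intervals of PET ratios are narrower than the true uncertainty. Library depth was not given in the files, and a list with fewer loops because of PDS cannot be told apart from one with fewer sequenced contacts. Since a loop outside a list had at most 2 PETs there, absence from the PDS list does not mean absence of contact.

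**Figure D1:**
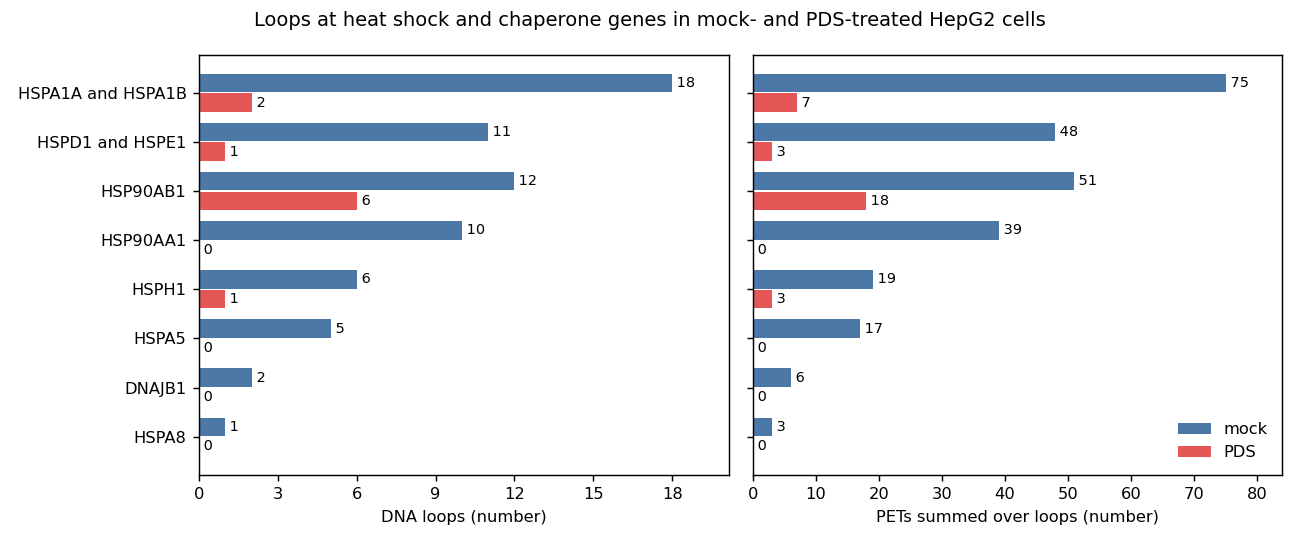
Horizontal bars give the number of DNA loops (left) and the PETs summed over them (right) at each gene or pair of neighbouring genes, in mock-treated (blue) and PDS-treated (red) cells, 1 combined list per condition. Mock bars exceeded PDS bars at all 8 loci, HSP90AB1 had the most PDS loops (6 against 12, with 1 in both lists), and 4 loci had 0 PDS loops.

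Just 4 of the 65 mock loops were also in the PDS list (6.15%, 2.42 to 14.8%), whereas 11.0% of all mock loops were. Seen from the other side, the same 4 made up 40.0% (16.8 to 68.7%) of the 10 PDS loops, and the share over all PDS loops was 39.1%. Among the 16 mock loops with at least 5 PETs only 1 was in both lists, and for all loops of that strength the share was 26.8%. By PET number these were 0 of 7 loops with 5 PETs, 1 of 8 with 6 to 9 and 0 of 1 with 10. Their intervals, 0 to 35.4%, 2.24 to 47.1% and 0 to 79.3%, included the shares of all loops, 18.3%, 32.4% and 62.6%. If each mock loop had the genome-wide share of its PET number, 7.93 of the 65 would be in both lists. These numbers ran below the background, but with 4 loops the interval for the whole group still included it. With the anchors of both lists extended by 5 kb before matching, 32.3% of the members' mock loops and 32.5% of all mock loops had a match. The lower share was not seen under this looser rule, which can also match a loop to a neighbouring one.

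**Figure D2:**
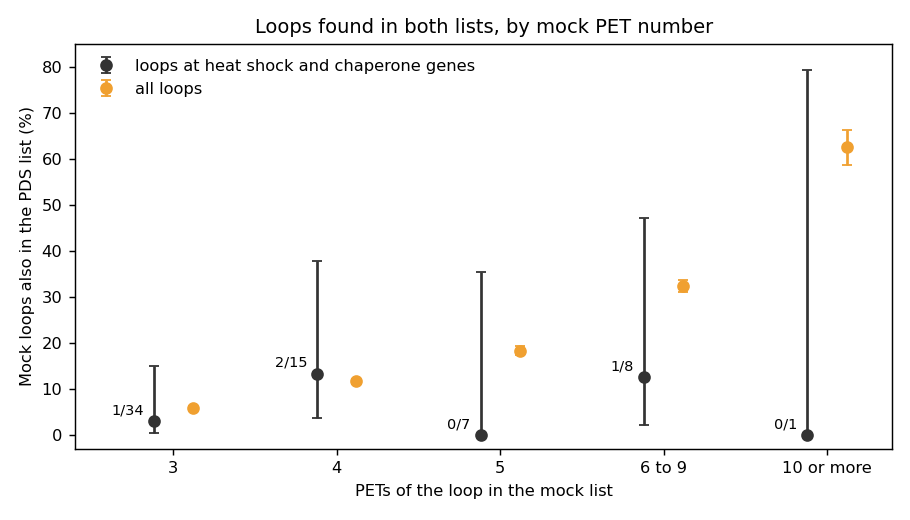
The y axis is the percentage of mock loops that were also in the PDS list and the x axis is the PET number of the loop in the mock list; black points are the loops at heat shock and chaperone genes with their counts, orange points are all loops, and bars are 95% Wilson intervals. Over all loops the share rose with PET number from 5.97% at 3 PETs to 62.6% at 10 or more, while the members stood at 1 of 34 loops with 3 PETs and 1 of 8 loops with 6 to 9 PETs.

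The cytosolic HSP70 genes HSPA1A (chr6:31815543-31817946) and HSPA1B (chr6:31827738-31830254) stand next to each other and encode nearly the same stress-inducible protein. Together their windows held 18 mock loops (75 PETs) and 2 PDS loops (7 PETs), a loop ratio of 0.111 (0.0287 to 0.431). The start of HSPA1A, which shares its anchor with the start of the testis HSP70 gene HSPA1L, was joined in mock-treated cells to 4 partners, an anchor at VARS1 (valyl-tRNA synthetase) and VWA7 with 3 PETs, another at VARS1 with 3 PETs, the promoter of LSM2, a subunit of the U6 snRNA-binding ring, with 4 PETs, and the 3′ end of HSPA1A with 4 PETs. No loop of this anchor was in the PDS list. The start of HSPA1B, by contrast, lay in no anchor, and the gene was reached only at its 3′ end, by a loop of 3 PETs to the anchor at the end of HSPA1A.

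Of the loops in these windows, the LSM2 anchor took part in 6 mock loops (25 PETs) and 1 PDS loop (3 PETs). That remaining loop joined LSM2 to the end of HSPA1A over 13656.5 bp and had 4 PETs in mock-treated and 3 in PDS-treated cells. On the other side, an anchor at NEU1, the lysosomal sialidase, and SLC44A4 was reached by 3 mock loops (14 PETs) from these windows, out of 11 mock loops that it had in all, with 2 PDS loops in all. In PDS-treated cells it had 1 loop in the HSPA1B window, absent from the mock list, with 4 PETs over 20640 bp, the highest PET number of any PDS loop in the group. A loop of 5 PETs from SNHG32, a noncoding host gene of small nucleolar RNAs, to this anchor was in the mock list only. Of the 3 loops with 6 PETs here, which joined VARS1 (chr6:31790553-31792868) to LSM2 (chr6:31804454-31809328) and an intergenic anchor to NEU1 and to SLC44A4 and EHMT2, none was in the PDS list. Repeated sequence may touch these values. Of the 31-base words of HSPA1A 76.7% have a second copy in the genome, and of those of HSPA1B 73.7%. A read longer than such a word can still have a unique place, so these are not the percentages of reads without one. For comparison, the median percentage of repeated words over the 74 anchors of member loops was 18.3%, and the HSPA1A start anchor had 38.0%. Without both genes the loop ratio of the others was 0.170 (0.0818 to 0.354).

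**Figure D3:**
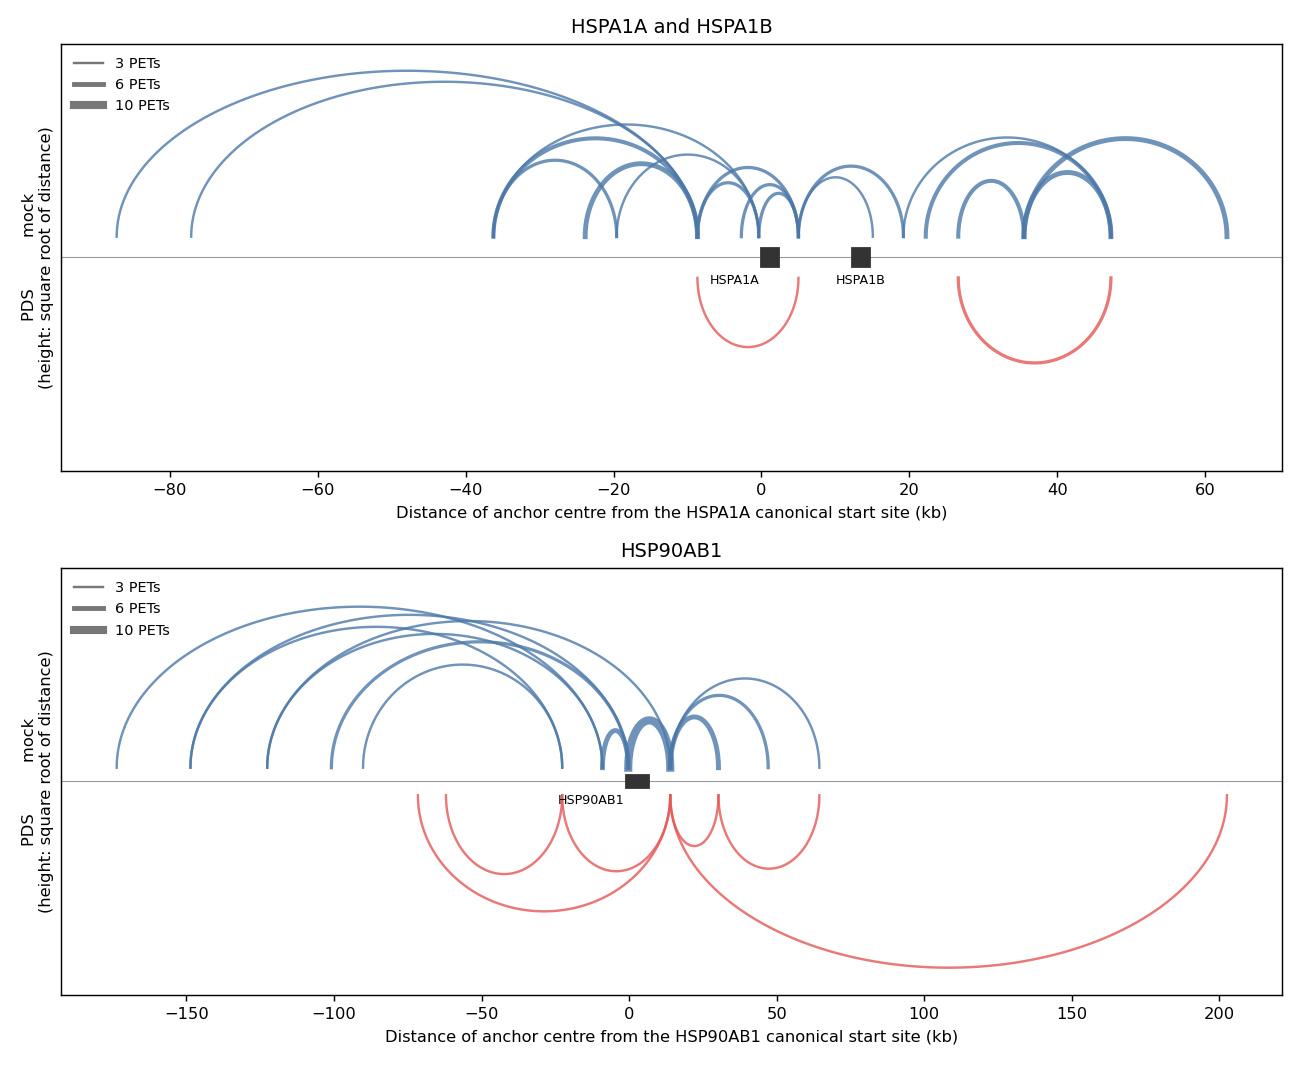
Each arc is a loop drawn between the centres of its anchors, with mock loops above and PDS loops below the line, line width in proportion to PETs and height to the square root of the distance; the x axis is the distance in kb from the canonical start of HSPA1A (top) or HSP90AB1 (bottom), and black boxes are the genes. Arcs that end at the start of HSPA1A or HSP90AB1 appear above the line only, and below the line the HSP90AB1 panel has 6 arcs, of which 4 end at the anchor over the 3′ end of the gene.

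HSPA8 (chr11:123057489-123063230), the constitutive cytosolic HSP70, had a single short loop in its window. It joined the start anchor (chr11:123061294-123064541) to the end of the gene (chr11:123051264-123060064) over 7253.5 bp with 3 PETs, the list minimum, and was not in the PDS list. With 1 mock loop HSPA8 stood lowest among the members and below the median of all genes.

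HSPH1 (chr13:31134973-31162388), an HSP110 protein that exchanges nucleotide on HSP70, had 6 mock loops (19 PETs) and 1 PDS loop (3 PETs). Its start anchor (chr13:31160287-31170172) took part in 4 of them with 3, 3, 3 and 4 PETs, and the partners were a distal anchor 72233 bp away, the 3′ end of the gene, an anchor inside the gene and, for the loop of 4 PETs, an intergenic anchor upstream (chr13:31171981-31186257). All 4 were absent after PDS treatment. The loop in both lists did not touch the gene and joined that upstream anchor to the promoter of B3GLCT, a glucosyltransferase of the endoplasmic reticulum, with 3 PETs in each condition.

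DNAJB1 (chr19:14514769-14560391), the J-domain partner of HSPA1A, had 2 mock loops of 3 PETs each and no PDS loop. Both ran from the promoter of NDUFB7, a subunit of respiratory complex I outside the gene record, to the body of ADGRE3, an adhesion receptor, 63596 and 113826 bp away. No anchor overlapped the canonical DNAJB1 start, so its RNAPII loops were those of a neighbour.

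The 2 cytosolic HSP90 genes had similar numbers of mock loops and different numbers of PDS loops. HSP90AA1 (chr14:102080742-102139699), the inducible form, had 10 mock loops with 39 PETs and none in the PDS list, which allows a ratio of up to 0.384. Its strongest loop, with 8 PETs, joined positions inside the long gene record 14557.5 bp apart (chr14:102104975-102115655 and chr14:102121478-102128267), and a loop of 6 PETs linked the 3′ end to a site 7989.5 bp downstream. The canonical start, which is that of the short transcript with the heat shock elements printed above, was in no anchor. At the far start of the long transcripts, an anchor shared with the start of WDR20 was joined to the promoter of DYNC1H1, the dynein heavy chain, over 174349 bp with 4 PETs. None of these strong or long contacts was listed after PDS treatment, on a chromosome whose overall ratio of 0.369 was the highest among those of the members.

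HSP90AB1 (chr6:44246166-44253888), the constitutive form, had more PDS loops than any other member, 6 against 12 mock loops and 18 against 51 PETs, with a loop ratio of 0.500 (0.194 to 1.29), although only 1 of the 6 was also a mock loop. The loops on the start and on the end of the gene differed. The start anchor (chr6:44245187-44248469) had 4 mock loops with 3, 4, 6 and 10 PETs, 23 in all, and 0 PDS loops, and the loop with 10 PETs, which ran to the end of the gene over 14218.5 bp, was the strongest of the group. The anchor over the 3′ end (chr6:44250962-44271131), with 5 mock loops and 26 PETs, had 4 PDS loops with 12 PETs. That anchor is 20170 bp wide against 3283 bp for the start anchor. It also holds the starts of NFKBIE, an inhibitor of NF-κB, SLC35B2, a sulfate donor transporter, and TMEM151B. Neither its PDS loops nor its end of the loop with 10 PETs can therefore be assigned to HSP90AB1.

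A single HSP90AB1 loop was in both lists, from the 3′ anchor to the next anchor downstream, with 6 PETs in mock-treated and 3 in PDS-treated cells. This downstream anchor overlaps the bodies of TMEM151B and TCTE1, and the only protein-coding start in it is that of a gene without a symbol. The other 5 PDS loops had 3 PETs each and no counterpart among the mock loops. They linked the 3′ anchor to CAPN11, a calpain, to SLC29A1, the nucleoside transporter ENT1, and to CDC5L, a spliceosome component, SLC29A1 to the body of CAPN11, and the TMEM151B and TCTE1 anchor to AARS2, the mitochondrial alanyl-tRNA synthetase. Without HSP90AB1, an alternative chosen after seeing the data, the other members had 53 mock and 4 PDS loops, a ratio of 0.0755 (0.0284 to 0.200). The window of this gene thus held most of the PDS loops of the group. Of these, 4 used the 3′ anchor, which overlaps the gene and also holds starts of its neighbours.

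**Figure D4:**
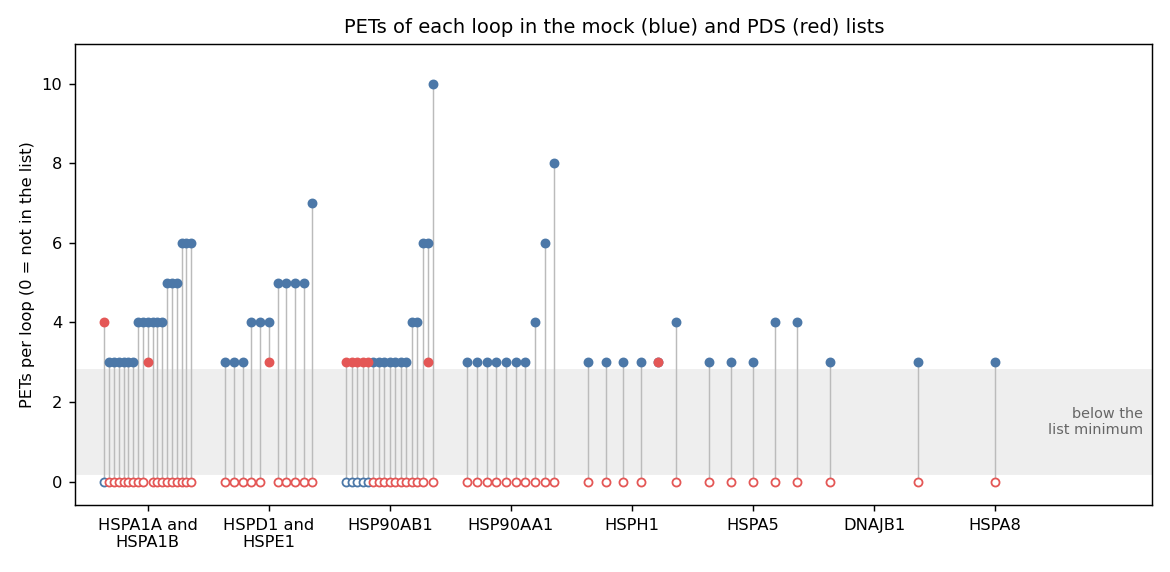
Each vertical line is 1 loop, placed by gene, and its points give the PETs (y axis) in the mock list (blue) and the PDS list (red), with an open point at 0 where the loop was not listed; the grey band marks 1 and 2 PETs, which neither list can hold. The 6 loops with a blue open point were in the PDS list only, and no PDS value was above 4 PETs.

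HSPA5 (chr9:125234853-125241382), the chaperone BiP, had 5 mock loops with 3, 3, 3, 4 and 4 PETs and none in the PDS list. No anchor touched the gene itself. On the 3′ side the loops joined parts of RABEPK, a Rab9 effector, to each other and to the body of SCAI, a suppressor of cancer cell invasion, and on the 5′ side they joined intergenic anchors and GAPVD1, a regulator of endocytosis. The loops of 4 PETs were that between parts of RABEPK (chr9:125203983-125209265 and chr9:125220408-125229702) and one between intergenic anchors (chr9:125246026-125250826 and chr9:125252780-125257167). A loop of this side also held the anchor nearest to the edge of any window on the inside, 19248 bp from HSPA5 with 3 mock PETs. The nearest anchor of a loop left out by the rule lay 22089 bp from HSP90AA1, also with 3 mock PETs and no PDS loop.

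HSPD1 (chr2:197486584-197516737) and HSPE1 (chr2:197500140-197503449) encode the mitochondrial chaperonin HSP60 and its cochaperonin HSP10 and are read in opposite directions. Their 11 mock loops had 48 PETs, and 1 loop with 3 PETs was in the PDS list. Neither canonical start lay in an anchor. An anchor over another annotated start of HSPD1, shared with the start of MOB4 (chr2:197513668-197517662), had 2 mock loops with 4 and 5 PETs, to COQ10B and to the body of MOB4, and no PDS loop. Most loops converged on an anchor in the body of COQ10B, a coenzyme Q-binding protein, with 5 mock loops (23 PETs), and on one in MOB4, a component of the STRIPAK phosphatase complex, with 7 mock loops (29 PETs), of which one with 5 PETs led to RFTN2, a raft-associated protein. The loop between these anchors spanned both chaperonin genes over 57939.5 bp and was the only one in both lists, with 4 PETs in mock-treated and 3 in PDS-treated cells. The strongest loop, with 7 PETs, joined the COQ10B anchor (chr2:197462988-197475312) to an intergenic site (chr2:197440118-197448554), and the longest, to PLCL1, covered 504482 bp with 3 PETs, and both were absent from the PDS list.

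Loops on the canonical start of a member were thus found at HSPA1A, HSPA8, HSP90AB1 and HSPH1, 13 mock loops with 53 PETs against 0 PDS loops, which allows a ratio of up to 0.295. Over all protein-coding genes the start loops numbered 17127 and 3906, a ratio of 0.228 inside that limit, and 68.3% of the 9841 genes with a mock start loop had none in the PDS list. Having no start loop in the PDS list was therefore the more common outcome across the genome. Each of the 4 genes also had a mock loop from the anchor at its own start to an anchor over its own end. It had 4 PETs at HSPA1A, 3 at HSPA8, 10 at HSP90AB1 and 3 at HSPH1. The end anchor of HSP90AB1 also holds the starts of NFKBIE, SLC35B2 and TMEM151B, and that of HSPA1A the start of a noncoding gene. Contacts with those starts cannot be told apart from contacts with the gene ends. This class of start-to-end loops was defined after the values were seen. Such loops occurred at 1486 protein-coding genes (7.42%), with a median of 4 PETs and at least 10 PETs at 31 genes, and 84.9% of these genes had none in the PDS list. All 1486 lie among the 9841 genes with a mock start loop, where their share is higher than over all genes. They were also shorter, with a median canonical span of 12385.5 bp against 22913 bp for all protein-coding genes.

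Because PDS binds G4s, the anchors were searched for the letters of a G4, 4 stretches of 3 or more G that are spaced by 1 to 7 bases, read on both strands. At least 1 anchor held such a motif in 78.5% (67.0 to 86.7%) of the member mock loops and in 75.2% of all mock loops, and in 25.0% of all promoter windows of 300 bases. All 4 loops in both lists had it, as did 47 of the 61 mock loops absent from the PDS list, and over all mock loops the shares were 78.7% and 74.8%. The start anchors of HSPA1A, HSPA8, HSP90AB1 and HSPH1 held 4, 3, 4 and 1 motifs. The examples below show 1 for each of these genes, with its runs of G in capitals, at HSPA1A (chr6:31814634-31814662, − strand), HSPA8 (chr11:123062396-123062414, + strand), HSP90AB1 (chr6:44247534-44247567, + strand) and HSPH1 (chr13:31169561-31169587, − strand), as read from the GRCh38 genome.
HSPA1A: GGGGaggcGGGGaaggcGGGGtaaGGGGG
HSPA8: GGGGaaaGGGaGGGtGGGG
HSP90AB1: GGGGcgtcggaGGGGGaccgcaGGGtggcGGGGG
HSPH1: GGGGGcagtGGGGagctgttGGGaGGG

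The HSPA1A example was centred 895 bp before the start, the HSPA8 example 269 bp before it and the HSPH1 example 7670 bp before it, while the HSP90AB1 example lay 449.5 bp inside the gene. Starts that were not anchors carried the motif too. HSPD1 and HSPE1 each had 4 motifs within 1 kb of the start, DNAJB1 had 3 and HSP90AA1 had 2, and HSPA1B and HSPA5 had none. The stretches searched at HSPD1 and HSPE1 overlap, so the same motifs can be counted at both. The motif was thus as common in the members' loops as elsewhere, and whether a G4 forms at these sites was not measured here.

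Other chaperone genes gave a wider view. Of 75 listed genes 74 were found in the annotation, 70 had a mock loop and 50 a PDS loop in the same kind of window. Their 425 mock and 106 PDS loops gave a ratio of 0.249 (0.202 to 0.308), with 14 loops shared with the members through HSPA1L. Of the 71 with a loop in either list, 3 had more PDS than mock loops, near the 3.20% found over all protein-coding genes with any loop. They were BAG1, a nucleotide exchange factor, with 1 mock and 2 PDS loops, HYOU1, the HSP110 of the endoplasmic reticulum, with 2 and 4, and MANF, a secreted stress protein of that compartment, with 0 and 1. The cytosolic HSP70 cofactors had 109 mock and 27 PDS loops (ratio 0.248), with DNAJC7 at 16 and 4, BAG4 at 11 and 0 and DNAJA2 at 11 and 3. The HSP90 co-chaperones had 64 and 16 (0.250). Of these, 26 and 10 were at FKBP5, a glucocorticoid-responsive immunophilin, 8 and 1 at STIP1, which bridges HSP70 and HSP90, 7 and 2 at the kinase co-chaperone CDC37 and 9 and 1 at PTGES3 (p23).

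Chaperones of the endoplasmic reticulum had 90 mock and 27 PDS loops (0.300), led by CRELD2 with 13 and 4, DNAJB11 with 9 and 1 and the lectin CANX with 10 and 2. Mitochondrial chaperones had 31 and 10 (0.323), with the disaggregase CLPB at 10 and 2, GRPEL2 at 4 and 0 and TRAP1, the mitochondrial HSP90, at 5 and 2. The cytosolic chaperonin TRiC had 45 and 11 (0.244), with CCT7 and TCP1 at 11 mock and 2 PDS loops each and CCT5 at 7 and 3. The lowest ratios were those of small heat shock proteins, 10 and 1 (0.100), where HSPB1 had 6 and 0, HSPB6 2 and 1, and HSPB8 and CRYAB 1 and 0 each, and of the heat shock factors and their regulators, 28 and 4 (0.143). There HSF4, a factor of the eye lens, had 15 and 1, the HSF1-binding protein HSBP1 had 9 and 2, HSF2 had 3 and 1 and HSF1 itself had 1 and 0. Other HSP70 genes had 48 and 10 (0.208), with HSPA1L at 16 and 1, HSPA12B at 13 and 2 and the inducible HSPA6 at 7 and 2. All 8 groups had intervals that included the ratio of all loops.

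**Figure D5:**
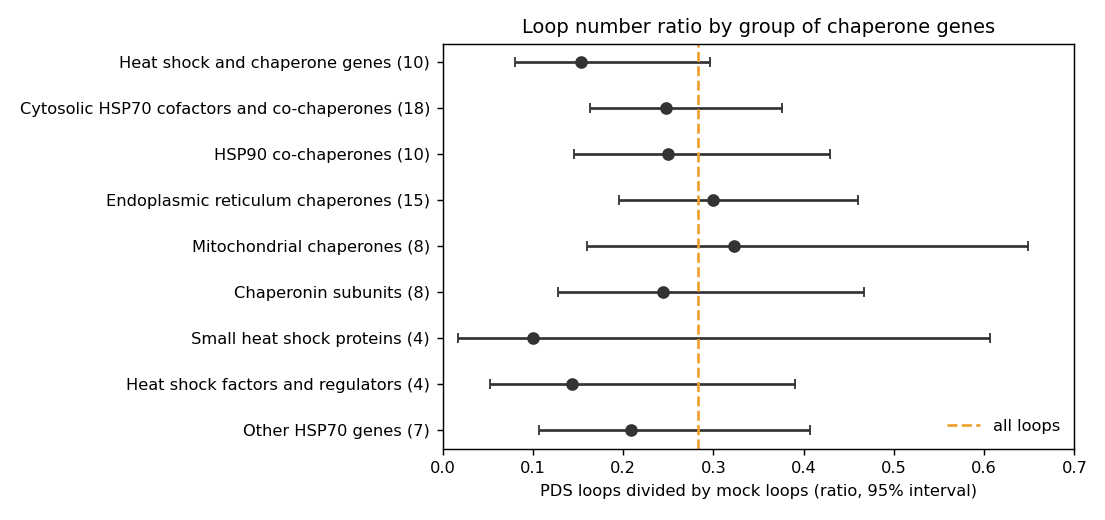
Points give the number of PDS loops divided by the number of mock loops (x axis) for the 10 heat shock and chaperone genes and for 8 groups of other chaperone genes, with the number of genes in brackets, and bars are 95% intervals from counting error. The dashed line is the ratio over all loops, 0.283, which every bar crossed.

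The label of the cells was checked against loops at marker genes. All 10 hepatocyte genes had a mock loop (median 13, HNF4A with 45), and so did 7 of 10 markers of other cells (median 8, RBFOX3 with 18), so loops in windows of this width did not separate the cell types sharply.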

How the data were processed

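RNAPII HiChIP-seq of mock- and PDS-treated HepG2 cells (2 replicates each) was analysed from the loop lists of the authors. Per the labels and the study's methods, reads were processed with HiC-Pro 3.1.0 on GRCh38. The study counted loops of at least 3 PETs, and the loop caller and the library depths were not given in the sources used here. The deposited lists, 1 per condition, hold pairs of anchors and a count of PETs, with no replicate values. Nearly all anchors began and ended at MboI sites (81737 of 81742 and 74 of 74 at member loops).

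Loops were assigned to members through GENCODE release 44 (gene record with 20 kb on either side), and a loop was in both lists when both anchors overlapped by at least 1 bp. The members and gene lists were chosen with earlier results of these data known. Members were all named. Partners were named where a loop had at least 5 mock PETs, was in both lists or in the PDS list only, and, of the other chaperones, the 3 of each list with most mock PETs and those with more PDS than mock loops. The partners of weaker loops, HSF1 and the marker genes were picked after their values were seen. A start loop had an anchor within 1 kb of the start of the Ensembl canonical transcript. Shares have 95% Wilson intervals, and ratios have the interval of the PDS share of both counts. Promoters came from RefSeq, all 10 genes being matched by 16 entries. Loop assignment, intervals and the motif search were tested on simulated data. Python 3.11.15, pandas 2.3.3, scipy 1.17.1 and samtools 1.23.1 were used.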

Additional observations from a re-analysis of the deposited data

How the results depend on the processing

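Each result was recomputed with other windows, PET minimums, matching rules and subsets of genes. Of 30 recomputed values, 16 stayed inside the main 95% interval and 14 moved out of it. A change of direction was defined for ratios only, as a move to the other side of 1, and 0 did so. Percentages had no such check, and the ratio of all loops was not its reference. With anchors within 1 kb of any annotated start of a member, the loop ratio, the PET ratio and the percentage of mock loops in both lists were all 0 (17 mock loops and no PDS loop). With at least 4 PETs they were 0.0323, 0.0256 and 0%, and with at least 5 PETs 0, 0 and 0%, where the loop ratios of all loops were 0.204 and 0.149. The PET ratios of all loops were 0.199 and 0.161 at these minimums, and 8.53% and 6.94% of all mock loops were in both lists. The members' intervals for that share, 0 to 11.0% and 0 to 19.4%, included those 2 percentages. The PET ratio was 0.194 for loops of at least 20 kb and 0.457 with PETs divided by list totals. Without HSP90AB1, chosen after seeing the data, the loop ratio was 0.0755 and the PET ratio 0.0628. With the anchors of both lists extended by 5 kb, 32.3% of the members' mock loops had a match, against 32.5% of all mock loops. The lower share of the members was not seen under this rule, which can also match neighbouring loops. Within the main 95% interval were the values for the gene body alone, the 50 kb flank and the set without HSPA1A and HSPA1B. So were those of the promoter percentage, from 56.3 to 69.2%. The interval of the loop ratio excluded the ratio of all loops with the 50 kb flank (0.0988 to 0.281), at least 4 PETs (0.00557 to 0.187), any annotated start (0 to 0.226) and without HSP90AB1 (0.0284 to 0.200). It included that ratio with the gene body alone, at least 5 PETs, loops of at least 20 kb and without HSPA1A and HSPA1B. For the PET minimums the reference was all loops at the same minimum. The setting of any annotated start was held against loops of every kind. Loops on canonical starts of all protein-coding genes had a ratio of 0.228, just above the limit of 0.226. A ratio for any annotated start over all genes was not computed. No paired analysis was possible because the 2 replicates of each condition were combined into 1 list, and for the same reason leaving out a replicate was not run. Loops supported by 3 PETs, 34 of the 65 mock loops and 9 of the 10 PDS loops, lay at the minimum of the lists, and their absence from a list limits them only to 2 PETs or fewer.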
